A study of Homo sapiens with 44 samples.

Results

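Genomic imprinting leaves a gene active mainly on the copy inherited from one parent, and many imprinted genes act on growth before birth. The 10 genes described here, namely IGF2, H19, DLK1, MEG3, PLAGL1, PEG10, MEST, PEG3, SNRPN and NNAT, were chosen by name as imprinted genes, after their levels in these libraries were known, so those levels are a description and carry no test. All 10 were found among the 60499 genes of the count table, and all 10 were among the 22955 genes with enough counts to be tested, although MEG3 and PEG3 were close to the limit of detection. The libraries come from 44 culture wells of the established cell line H1, human embryonic stem cells that were differentiated here towards heart muscle. Pluripotent cells were kept on the laminin LN-521 (3 wells), and all other wells were coated with LN-521 and LN-221 together. Day 0 cells (3 wells) were confluent in Nutristem medium. Day 1 and day 3 cells (3 wells each) were in RPMI medium with insulin-free B27 and CHIR99021, which blocks GSK3 and so switches Wnt signalling on. At day 5 (5 wells) the medium held IWP2, which blocks the secretion of Wnt proteins, and at days 7 and 9 (5 wells each) it held neither inhibitor. The series' text gives 3 wells for day 11, and the sample labels give 5, which were all used. From day 11 (5 wells) to days 14, 20, 30 and 90 (3 wells each) the supplement was CTS B-27. A single cell line supplies every group, and nothing in the labels says whether the wells of a group were started from separate cultures, so the spread given below is that between wells.

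The growth factor IGF2 and the non-coding RNA H19 are neighbours on chromosome 11 and share enhancers. A methylated control region between them sends those enhancers to IGF2 on the paternal copy and to H19 on the maternal copy. DLK1, a membrane protein of the Notch ligand family that holds back differentiation, and MEG3, a non-coding RNA, form a similar pair on chromosome 14, with DLK1 read from the paternal and MEG3 from the maternal copy. PLAGL1 encodes a zinc finger transcription factor, PEG10 a protein derived from a retrotransposon that the placenta needs, MEST a protein of the alpha/beta hydrolase fold, and PEG3 a large zinc finger protein. SNRPN encodes a protein of the splicing machinery and lies in the Prader-Willi region of chromosome 15, and NNAT encodes a small membrane protein of developing brain and pancreas. These 8 genes other than H19 and MEG3 are read from the paternal copy. The files give total RNA per gene, so neither the parental origin of a transcript nor the methylation of a control region was measured here. In bulk wells, fewer cells of a type and less RNA per cell cannot be told apart.

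In GENCODE release 29 on GRCh38, with bases counted from 1, IGF2 (ENSG00000167244) lies at chr11:2129112-2149603 and H19 (ENSG00000130600) at chr11:1995176-2001470, both on the minus strand. DLK1 (ENSG00000185559) lies at chr14:100725705-100738224 and MEG3 (ENSG00000214548) at chr14:100779410-100861031, both on the plus strand. PLAGL1 (ENSG00000118495) is at chr6:143940300-144064599 on the minus strand, and PEG3 (ENSG00000198300) is at chr19:56810077-56840728 on the minus strand. On the plus strand, PEG10 (ENSG00000242265) is at chr7:94656325-94669695, MEST (ENSG00000106484) at chr7:130486171-130506465, SNRPN (ENSG00000128739) at chr15:24823637-24978723 and NNAT (ENSG00000053438) at chr20:37521206-37523693. Whether the authors' counting used the strand is not given in the sources used here, so reads in a stretch shared with an overlapping gene could have been split. SNRPN overlaps 5 tested genes, among them SNURF and SNHG14 on its own strand. IGF2 overlaps AC132217.1 and IGF2-AS, PEG10 overlaps SGCE, MEST overlaps MESTIT1 and COPG2, and NNAT overlaps BLCAP. The remaining 5 overlap no tested gene.

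In the RefSeq table, microRNAs lay within H19, MEST and MEG3, and 5 of their arms are printed. Another, miR-2392 in an intron of MEG3 (chr14:100814551-100814570, plus strand), is not printed. The counts are per gene and do not show which transcript was made, and the libraries did not measure mature microRNAs. Mature sequences are from RefSeq on GRCh38.p14, 5′ to 3′, and capitals mark the seed, bases 2 to 8, which pairs with targets. In H19 the microRNA lies in an exon of at least 1 transcript, in MEST in an intron, and miR-770-5p of MEG3 in an exon of at least 1 transcript. No seed was shared among these 5.
miR-675-5p (H19, chr11:1996800-1996822, minus strand): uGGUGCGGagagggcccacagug
miR-675-3p (H19, chr11:1996768-1996787, minus strand): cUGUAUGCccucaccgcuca
miR-335-5p (MEST, chr7:130496126-130496148, plus strand): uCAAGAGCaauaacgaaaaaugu
miR-335-3p (MEST, chr7:130496162-130496183, plus strand): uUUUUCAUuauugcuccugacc
miR-770-5p (MEG3, chr14:100852409-100852431, plus strand): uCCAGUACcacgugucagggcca

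Promoter windows from RefSeq, 250 bases before to 50 bases after a start site on GRCh38.p14, matched 5 of the 10 genes (H19, MEG3, PLAGL1, MEST and SNRPN) with 18 windows. IGF2, DLK1, PEG3, PEG10 and NNAT had no entry. The windows were searched on both strands for TGCCGC, the hexamer that the zinc finger protein ZFP57 recognises when it is methylated at imprinted control regions. Overlapping matches were counted, and the motif read on the other strand is GCGGCA. It was present in 10 of the 18 windows and in 16.7% of all 35116 windows of the table, but windows of 1 gene can overlap, so the 18 are not independent. One window for each of 4 genes is printed, with the hexamer in capitals: H19 and MEG3 for the non-coding partners, and PLAGL1 and SNRPN because their levels moved in opposite directions during the first days. The H19 window has 0 matches and 6 CG dinucleotides, against a median of 14 over all windows. The MEG3 window has 1 match and 19 CG. The PLAGL1 window has 2 matches, which lie beside each other on opposite strands, and 39 CG. The SNRPN window has 2 matches and 18 CG. The printed PLAGL1 and SNRPN windows are those of their gene with the most matches. PLAGL1 has 5 windows, of which the other 4 have 0 matches, and SNRPN has 4, with 0, 0, 2 and 1 matches. MEG3 has 3, with 1 match each, and the PLAGL1 and SNRPN windows were picked after their matches were seen. A match is a run of letters and was not linked to binding or methylation here.
H19 (chr11:2001217-2001516, minus strand): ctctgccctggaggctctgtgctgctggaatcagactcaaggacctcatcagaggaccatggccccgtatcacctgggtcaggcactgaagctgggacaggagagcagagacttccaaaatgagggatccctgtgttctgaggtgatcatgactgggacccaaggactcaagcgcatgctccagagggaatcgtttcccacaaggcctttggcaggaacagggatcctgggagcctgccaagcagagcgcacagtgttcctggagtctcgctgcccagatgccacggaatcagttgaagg
MEG3 (chr14:100825858-100826157, plus strand): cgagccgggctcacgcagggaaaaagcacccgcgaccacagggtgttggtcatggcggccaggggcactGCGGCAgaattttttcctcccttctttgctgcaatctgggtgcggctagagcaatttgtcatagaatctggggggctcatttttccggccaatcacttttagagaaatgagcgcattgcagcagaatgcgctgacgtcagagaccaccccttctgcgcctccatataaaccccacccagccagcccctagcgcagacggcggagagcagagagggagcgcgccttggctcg
PLAGL1 (chr6:144008210-144008509, minus strand): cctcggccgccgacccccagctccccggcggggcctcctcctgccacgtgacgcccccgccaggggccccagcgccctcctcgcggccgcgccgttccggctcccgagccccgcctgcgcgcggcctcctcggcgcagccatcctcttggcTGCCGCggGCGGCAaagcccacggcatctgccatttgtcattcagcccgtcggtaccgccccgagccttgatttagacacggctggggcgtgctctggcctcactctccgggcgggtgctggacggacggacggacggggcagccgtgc
SNRPN (chr15:24954737-24955036, plus strand): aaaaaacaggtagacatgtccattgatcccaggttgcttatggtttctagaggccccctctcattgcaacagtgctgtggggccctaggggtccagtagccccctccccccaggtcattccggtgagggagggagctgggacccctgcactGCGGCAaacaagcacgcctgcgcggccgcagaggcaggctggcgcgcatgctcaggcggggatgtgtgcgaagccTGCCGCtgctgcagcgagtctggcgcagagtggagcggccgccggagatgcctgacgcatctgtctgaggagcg

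Library totals ran from 6937136 to 33498022 estimated counts, so the floor of 3 counts stood at 0.0919 to 0.410 CPM (a gene's share of the counts of a library in counts per 1e6, after scaling by the trimmed mean of M values, TMM). The summed CPM of 6 pluripotent cell markers was 5136 to 5488 in pluripotent wells and 6.67 to 16.6 at day 90, and that of 8 cardiomyocyte markers went from 33.2 to 80.2 to 18195 to 53748. Some wells stood apart from their group in markers of other cell types. Day 11 replicates 1 and 2 had a summed CPM of 5558 and 10227 for 8 hepatic endoderm markers (AFP, ALB, TTR and others), against 295 to 369 in replicates 5, 6 and 7. The RNA integrity score (RIN) was 8.6 and 8.0 in those wells and 9.2 to 9.5 in the other 3. Day 9 replicate 2 had a hepatic sum of 7398 CPM, against 775 to 2445 in the other 4 wells, and a sum of 4902 CPM for 8 stromal and epicardial markers (COL1A1, COL3A1, DCN and others), against 1780.5 to 2487 CPM. It was also the day 9 well with the highest CPM of IGF2, H19, DLK1, PLAGL1, PEG10 and MEST, and the part of those markers was not tested. The shallowest libraries were day 20 replicate 2, day 14 replicate 2 and day 30 replicate 10, with totals of 6937136, 8679308 and 11715812 and RIN of 8.0, 7.4 and 7.4. Adjacent comparisons below share a group at their common end.

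**Figure D1:**
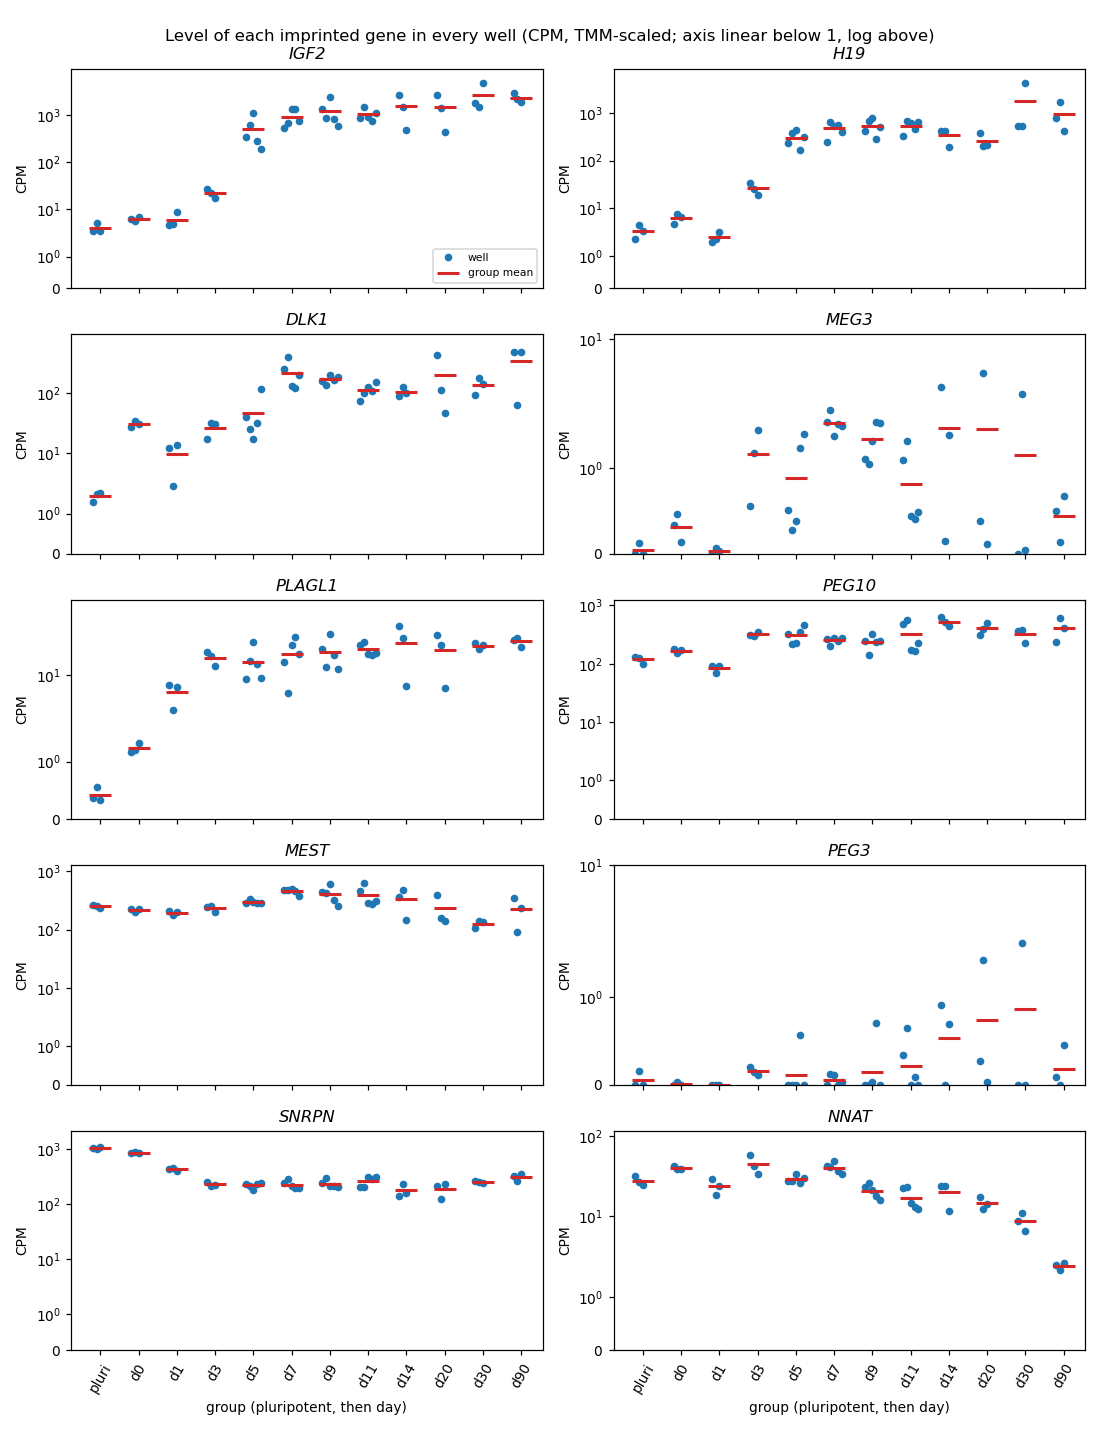
Level of each of the 10 genes in every well, in CPM on an axis that is linear below 1 and logarithmic above, for the 12 groups from pluripotent cells to day 90; points are wells and bars are group means. IGF2 and H19 climb between day 1 and day 5, SNRPN goes down over the first groups, NNAT goes down from day 9 onward, and MEG3 and PEG3 stay below 6 CPM in every well.

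Among the 8 genes above the detection floor in every well, H19 and IGF2 had the widest ranges in level. Wells are given in the order of their replicate labels, with 10 after 1 (1, 10, 2, 3 and 4 at days 7 and 9, and 1, 10 and 3 at day 30). In pluripotent wells IGF2 was at 3.50, 5.11 and 3.54 CPM, at day 0 at 6.28, 5.76 and 6.91, and at day 1 at 4.55, 4.82 and 8.66 CPM. At day 3, after 3 days of CHIR99021, the wells were at 27.1, 22.4 and 17.7 CPM, and at day 5 at 339, 610.0, 1072, 272 and 185 CPM. Every day 3 well lay above every earlier well, and every day 5 well lay above every day 3 well. Day 7 wells were at 531, 657, 1319, 1318 and 741, day 9 wells at 1297, 869, 2316, 798 and 580.3 and day 11 wells at 863, 1464, 899, 744 and 1101 CPM. Later wells were at 2592, 1468 and 479.8 CPM (day 14), 2626, 1362 and 428 (day 20), 1765, 1426 and 4733 (day 30) and 2839.9, 2115 and 1854 (day 90). From day 5 to day 90 the ranges of groups next to each other in level all overlapped. Groups farther apart could be separate in CPM: every day 30 well lay above every day 5 and day 7 well, and every day 90 well above every well of days 5, 7 and 11. The day 90 separation was not kept in TPM, the deposited unit explained below. There the day 90 wells, at 109 to 181, overlapped day 5 (up to 123), day 7 (up to 144) and day 11 (up to 222). The group means ran from 4.05 ± 0.923 CPM (SD, n = 3) in pluripotent cells to 2641 ± 1819 CPM (SD, n = 3) at day 30, a ratio of 652.

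H19 also climbed between day 1 and day 5, but it differed from IGF2 before and after. Its wells were at 2.25, 4.41 and 3.32 CPM in pluripotent cells, 4.66, 7.52 and 6.49 at day 0, 1.99, 2.31 and 3.14 at day 1 and 33.3, 26.0 and 19.3 at day 3. At day 5 they were at 228, 371, 442, 169.9 and 306 CPM, and at day 7 at 249.9, 645, 532, 549 and 396 CPM. The day 3 wells thus lay between all earlier and all later wells, with no overlap on either side. Days 9 and 11 gave 416, 663, 762, 280.3 and 498 and then 329, 663, 624, 456 and 635 CPM. Days 14 and 20 gave 418, 419 and 192 and then 377, 200.1 and 212 CPM. At day 1 all H19 wells lay below all day 0 wells, where those of IGF2 overlapped. From day 11 to day 20 the mean of H19 went from 541 ± 144 (SD, n = 5) to 263 ± 99.0 CPM (SD, n = 3), while that of IGF2 went from 1014 ± 282 (SD, n = 5) to 1472 ± 1103 CPM (SD, n = 3), with overlapping wells for both. At day 30 replicate 3 stood at 4216 CPM, with replicates 1 and 10 at 521 and 525, and day 90 wells were at 767, 1691 and 422 CPM. The day 30 mean of 1754 ± 2132 CPM (SD, n = 3) therefore rests on 1 well, and it was 707 times the day 1 mean of 2.48 ± 0.597 CPM (SD, n = 3).

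The lowest levels of this pair carry a limit. All 5 sequencing lanes mixed early with late libraries, and in pluripotent, day 0 and day 1 wells H19 stood at 0.532 to 2.78% and IGF2 at 0.304 to 1.09% of the CPM of their whole lane, all libraries pooled. TNNT2 and MYH7, sarcomere genes of heart muscle, stood at 0.540 to 1.38% in the same wells. DLK1 at day 0 (26.3 to 47.9%) and PLAGL1 at day 0 (10.4 to 14.5%) were far above that share, while DLK1 in pluripotent wells (1.08 to 1.81%) overlapped with it. The part of reads from other libraries of the lane in these early levels was not tested, and the 2 ratios above describe the libraries.

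Within the groups, wells high in IGF2 were also high in H19. Across the 44 wells, the deviations of log2 CPM from the group means had a Pearson r of 0.62 (adjusted p = 0.00048, permutation test within groups) and a Spearman rho of 0.67 (adjusted p = 0.00027). These p-values are two-sided, from 100000 permutations, and adjusted over 3 relations (unadjusted 0.00016 and 9e-05). The p-values of all 3 relations take the wells of a group as independent, which the labels do not state. The deviations come from the same counts that were known when the genes were chosen. How often gene pairs outside these 3 relations move together within groups was not examined. Without the 2 wells farthest from the median of IGF2, day 20 replicate 1 and day 5 replicate 3, r was 0.59. Within the 5 lanes r ran from 0.44 to 0.85 (n = 8 to 10 wells a lane). For IGF2 and DLK1 the deviations gave r = 0.0016 and rho = -0.11 (adjusted p = 0.99 and 0.54, permutation tests, unadjusted 0.99 and 0.54). Without day 20 replicate 1 and day 5 replicate 3 that r was -0.035, and within lanes it ran from -0.43 to 0.44. Whether the 2 relations differ was not tested. The sum of stromal and epicardial markers often moved with IGF2. In day 5 replicate 3, day 9 replicate 2, day 11 replicate 2 and day 30 replicate 3, each the highest well of its group in IGF2, it was also the highest of the group, at 3115, 4902, 5738 and 6073 CPM. At day 7 the 2 wells highest in IGF2, replicates 2 and 3, had the 2 highest sums, 3108 and 3008 CPM. At day 20, IGF2 was at 2626, 1362 and 428 CPM while that sum was 8709, 2705 and 1668 CPM. At day 14 the same sum was 3678, 5027 and 1009 CPM, with IGF2 lowest in replicate 6, the well of the lowest sum. At day 90 the order differed, with IGF2 at 2839.9, 2115 and 1854 CPM and sums of 12947, 2219 and 6661 CPM. The hepatic endoderm sum was also the highest of its group in the named wells of days 5, 9, 11 and 30. It was 891, 7398, 10227 and 387 CPM there. Its 2 highest day 7 values, 1252 and 1146 CPM, were in replicates 2 and 3. Its lowest value at day 14, 3676 CPM, was in replicate 6. At day 20 it was highest in replicate 3 (5374 CPM), the well lowest in IGF2, and at day 90 in replicate 4 (213 CPM). All 8 stromal and epicardial markers were detected in every group from day 0 on and 6 of 8 in pluripotent wells. None was at 0 in a whole group. The part of both lists in the result was not tested.

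**Figure D2:**
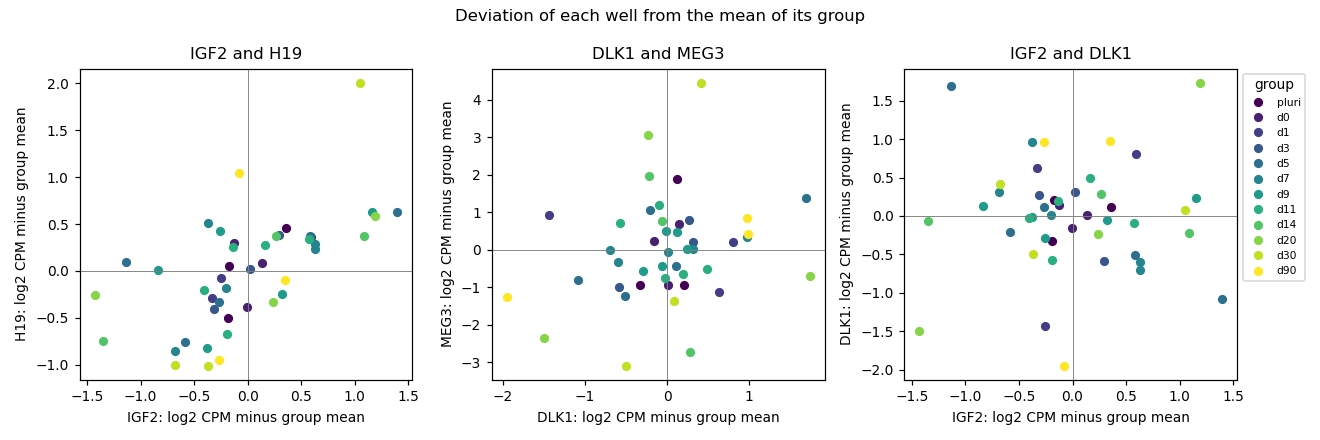
Each point is a well, placed by the difference of its log2 CPM from the mean of its group, for IGF2 and H19 (left), DLK1 and MEG3 (middle) and IGF2 and DLK1 (right), with the 12 groups in colour. The points slope upward on the left (r = 0.62 over 44 wells) and scatter with little direction on the right (r = 0.0016).

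Per length, H19 was above IGF2 in every well up to day 11. In pluripotent, day 0 and day 1 wells both genes carry the lane limit given above. TPM, the deposited unit of transcripts per 1e6 transcripts, divides by transcript length, so levels of different genes can be set beside each other. The ratio of IGF2 to H19 in TPM was 0.222 to 0.238 in the 3 day 3 wells, so H19 was the more abundant transcript in each. It was 0.173 to 0.727 at day 5, 0.329 to 0.943 at day 9 and 0.438 to 0.726 at day 11, below 1 in every one of those wells. From day 14 on the ratios straddled 1, with 0.728 to 1.59 at day 14, 0.557 to 1.91 at day 20, 0.323 to 1.01 at day 30 and from 0.369 to 1.2 at day 90. Across the 12 group means of log2 CPM the pair had r = 0.985, given as a description since the points share libraries and scaling. The 3 other genes whose group means were most like those of IGF2, out of 13478 candidates, were TSHZ1, JPH2 and TRIM55 (Pearson r 0.996, 0.994 and 0.994); JPH2 and TRIM55 are genes of the muscle cell's junctional membranes and sarcomere. For H19 they were DPF3, MBNL2 and CARMN (Pearson r 0.988, 0.987 and 0.986).

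DLK1 was already higher at day 0. The pluripotent wells were at 1.53, 2.08 and 2.22 CPM and the day 0 wells at 27.8, 34.3 and 31.1 CPM. That step, before any CHIR99021 was added, had a log2 change of 3.99 ± 0.72 (SE). Day 1 wells were at 12.2, 2.89 and 13.8 CPM, below every day 0 well and above every pluripotent well, and day 3 wells were at 17.0, 31.7 and 30.8 CPM. Day 5 wells were at 39.8, 25.9, 17.4, 32.0 and 119 CPM, so replicate 5 stood apart, and day 7 wells were at 249.9, 393, 133, 124 and 203 CPM. Day 9 wells, at 162, 138, 199, 166 and 184 CPM, were the evenest of the later groups. Day 11 wells were at 73.0, 102, 125, 107 and 153 CPM and day 14 wells at 89.3, 127 and 99.7 CPM. Day 20 wells spread from 437 over 111 to 46.4 CPM, and day 30 wells were at 94.3, 178 and 141 CPM. At day 90, replicates 2 and 5 were at 479 and 474 CPM and replicate 4 at 62.8 CPM. Day 90 replicate 4 also had the lowest stromal and epicardial sum of its group, 2219 CPM against 12947 and 6661, and the highest cardiomyocyte sum, 53748 against 18195 and 22732 CPM, and the part of these in its DLK1 level was not tested. The group means spanned a ratio of 174, from 1.94 ± 0.368 CPM to 339 ± 239 CPM (SD, n = 3 each). The lower of these, in pluripotent wells, carries the lane limit given above. In TPM the mean was highest at day 20 (70.6), ahead of day 7 (62.3) and day 90 (58.6). Most like DLK1 over the 12 group means were LCAT, TNFRSF10B and ALAD (Pearson r 0.968, 0.967 and 0.960).

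MEG3, the maternal partner of DLK1, was low in every well. It was at 0 counts in 4 of 44 libraries, above 3 counts in 35, above 1 CPM in 20, and reached at most 5.47 CPM. No library held more than 69 counts of it. Pluripotent wells were at 0, 0.123 and 0 CPM and day 1 wells at 0, 0.0643 and 0.0311 CPM. Day 7 wells were the evenest, at 2.27, 2.83, 1.76, 2.20 and 2.12 CPM, a mean at least 22.1-fold higher than the floor of 3 counts in a day 1 library. Late wells were uneven: day 30 was at 0, 3.75 and 0.0463 CPM, day 20 at 0.384, 5.47 and 0.110 CPM and day 14 at 4.22, 0.144 and 1.81 CPM. In each of these 3 groups the highest well was the shallowest library, which also had the lowest RIN of its group, and the part of depth and RNA quality was not tested. The ratio of MEG3 to DLK1 in TPM did not exceed 0.0544 in any well, and at day 90 it was 0.000392 to 0.00135. Within groups the deviations of the pair gave r = 0.24 and rho = 0.21 (adjusted p = 0.34 and 0.37, permutation tests within groups, unadjusted 0.23 and 0.25), and r = 0.25 without day 20 replicate 1 and day 90 replicate 4. Within lanes r ran from -0.29 to 0.74. On the log2(TPM + 1) scale r was 0.45 (adjusted p = 0.04, permutation test), so this relation depends on the scale. The group means of MEG3 were most like those of HSD17B14, UNC5C and GPR137C (Pearson r 0.945, 0.940 and 0.930).

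PLAGL1 had the steadiest climb of the first days. The pluripotent wells were at 0.362, 0.551 and 0.328 CPM, day 0 wells at 1.28, 1.36 and 1.62, day 1 wells at 7.75, 3.98 and 7.32 and day 3 wells at 18.2, 16.6 and 12.7 CPM. Each of these groups lay wholly above the one before. Afterwards day 5 wells were at 9.02, 14.6, 24.2, 13.4 and 9.34 CPM, day 9 wells at 20.1, 12.5, 30.1, 16.9 and 11.6 CPM and day 90 wells at 25.1, 27.0 and 21.3 CPM. The wells of days 7, 11, 14, 20 and 30 lay between 6.14 and 37.1 CPM, so from day 3 on, no neighbouring pair in level was separate. The highest to lowest group mean gave a ratio of 59.1. The genes with the most similar group means were YAF2, CCDC92 and H2AFY (Pearson r 0.994, 0.981 and 0.980).

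PEG10 was expressed throughout, from 69.2 to 91.7 CPM at day 1, its lowest group, to 447 to 629 CPM at day 14, its highest. It stood at 132, 128 and 101 CPM in pluripotent wells, 176, 152 and 171 at day 0, 90.6, 69.2 and 91.7 at day 1 and 306, 302 and 353 at day 3. The day 1 wells were below all wells of the 3 other groups, and the day 3 wells were above them. At day 11 PEG10 was at 476 and 565 CPM in replicates 1 and 2 and at 169.9, 164 and 227 CPM in replicates 5, 6 and 7. The same 2 wells held the high hepatic endoderm sums given above. All 3 day 14 wells, at 629, 518 and 447 CPM, also had high hepatic sums, of 3676 to 4789 CPM, whereas at day 90 PEG10 was at 235, 599 and 404 CPM with hepatic sums of 10.1 to 213 CPM. At least 6 of the 8 hepatic markers were detected in each group, none was at 0 in a whole group, and their part in the result was not tested. Closest to PEG10 in group means were PRICKLE2, NBPF19 and SDK2 (Pearson r 0.947, 0.943 and 0.936); NBPF19 has near-identical copies, so its level is uncertain.

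MEST had the narrowest range of the 8 genes above the floor in every well, with a ratio of 3.64 between its highest group, day 7, and its lowest, day 30. Day 7 wells were at 478, 484, 507, 454 and 382 CPM and day 30 wells at 107, 138 and 134 CPM. Early wells were even, at 239 to 268 CPM in pluripotent cells, 203 to 227 at day 0, 175 to 209 at day 1 and 197 to 258 at day 3. In the day 11 group MEST split as PEG10 did, at 462 and 638 CPM in replicates 1 and 2 and at 282, 270.4 and 304 in the other 3. The stromal and epicardial sum was also highest in replicates 1 and 2, at 2938 and 5738 against 1594 to 2206 CPM, and MEST had the order of that sum over the 5 wells. In days 14, 20 and 90 it also had the order of those sums, but in none of the other groups, which include days 5, 7, 9 and 30. At day 30 replicates 1, 10 and 3 had sums of 3272, 2629 and 6073 CPM. Day 90 replicates 2, 4 and 5 were at 350.4, 89.5 and 237 CPM, and day 20 replicates 1, 2 and 3 at 395, 157 and 140.3 CPM. Wells of day 14 were at 363, 485 and 148 CPM, and the part of these cell types in the levels of MEST was not tested. Over the group means the genes nearest to MEST were MMD, NEU1 and SAMSN1 (Pearson r 0.951, 0.935 and 0.917).

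PEG3 was at or near the limit of detection. It had 0 counts in 22 of the 44 libraries, more than 3 counts in 13, and more than 1 CPM in 2. All 3 day 1 wells were at 0, and the highest values were 2.58 CPM (33 counts) in day 30 replicate 10 and 1.92 CPM in day 20 replicate 2. Those are 2 of the 3 shallowest libraries, and the other day 30 wells were at 0. No fold is given for PEG3, because at this depth no group stood clear of the floor in all of its wells. The genes nearest to it in group means were PKN2, SHB and RGP1 (Pearson r 0.935, 0.920 and 0.910), a likeness that rests on a few counts.

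SNRPN went the other way. Pluripotent wells were at 1034, 990.1 and 1069.8 CPM, day 0 wells at 829, 869 and 861, day 1 wells at 429.6, 442 and 403 and day 3 wells at 254, 213 and 219 CPM. Each group lay wholly below the one before, with tight wells. After day 3 all wells stayed between 122 and 346 CPM: day 5 was at 232, 213, 178, 231 and 244 CPM, day 9 at 241, 298, 210.0, 209 and 203 and day 30 at 258, 253 and 241 CPM. Day 90 wells were at 318, 263 and 346 CPM, and day 20 replicate 2, the shallowest library, was the lowest of all at 122 CPM. In TPM, SNRPN was the most abundant of the 10 in pluripotent wells, at 449 ± 66.4 TPM, ahead of MEST at 79.2 ± 10.6 TPM (SD, n = 3 each). SNRPN had the highest mean TPM up to day 3, H19 from day 5 to day 11, IGF2 at days 14 and 20 and H19 again at days 30 and 90. At day 90 H19 was above IGF2 in replicate 4 only, at 474 against 175 TPM. In replicates 2 and 5 H19 was at 171 and 91.5 TPM and IGF2 at 181 and 109 TPM. The day 30 mean of H19, 947 ± 1263 TPM, rests on replicate 3 (2402 TPM, against 148 and 289 in replicates 1 and 10), and SNRPN was at 105 ± 30.8 TPM (SD, n = 3 each). Its group means were most like those of PSMB6, RTN4IP1 and POR (Pearson r 0.978, 0.976 and 0.973); PSMB6 encodes a proteasome subunit and POR the electron donor of cytochrome P450 enzymes.

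NNAT was moderate early and low late. Pluripotent wells were at 32.2, 27.0 and 24.6 CPM, day 0 wells at 42.9, 38.7 and 38.7, day 3 wells at 58.0, 42.4 and 33.7 and day 7 wells at 42.5, 41.1, 48.6, 36.2 and 33.2 CPM. Day 9 wells were at 23.1, 26.1, 21.4, 17.9 and 16.2 CPM and lay below every day 7 well. Day 20 wells were at 17.4, 12.3 and 14.1 CPM, day 30 wells at 8.80, 10.9 and 6.53 CPM and day 90 wells at 2.47, 2.16 and 2.63 CPM. The day 30 and day 90 groups each lay wholly below the group before it in level. Day 3, the highest group, was at 44.7 ± 12.4 CPM and day 90 at 2.42 ± 0.242 CPM (SD, n = 3 each), a ratio of 18.5. Its group means resembled those of SYN2, PTBP3 and CACNA1A (Pearson r 0.972, 0.956 and 0.954) most, 2 of them, SYN2 and CACNA1A, genes of the nerve terminal.

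**Figure D3:**
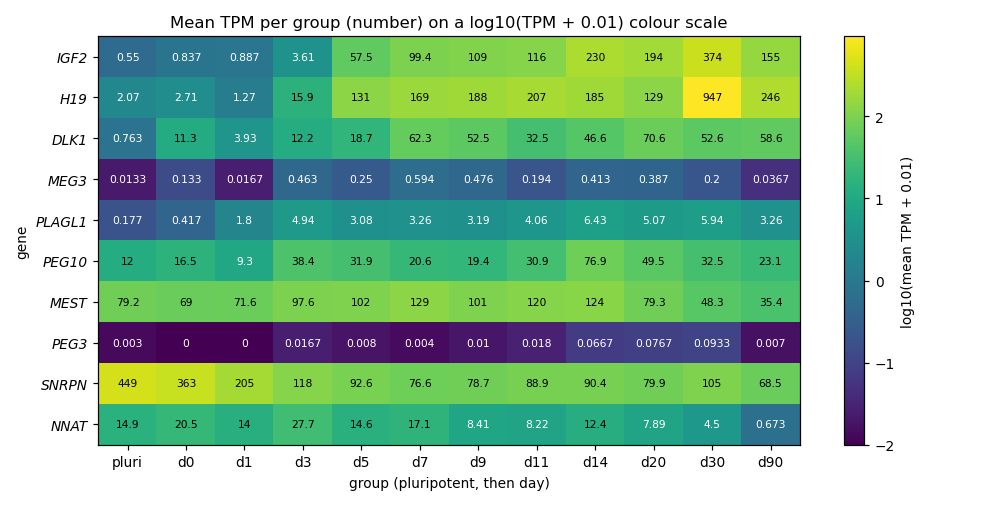
Mean TPM of the 10 genes (rows) in the 12 groups (columns), printed in each cell and coloured by log10 of TPM plus 0.01. SNRPN leads in pluripotent cells at 449 TPM, H19 leads at day 30 at 947 TPM (a mean that rests on 1 well), and MEG3 and PEG3 are below 1 TPM in every group.

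The first comparison set day 0 against pluripotent cells, that is, confluent cells on the mixed laminins against cells on LN-521 alone, so coating and density cannot be told apart. The CPM of 7 genes was higher in every day 0 well than in every pluripotent well, that of 2 (MEST and SNRPN) was lower in every one, and PEG3 overlapped. Over all 22955 tested genes 23.6% were wholly higher and 24.2% wholly lower. Sizes differed widely: DLK1 had a log2 change of 3.99 ± 0.72 (SE) and PLAGL1 of 1.75 ± 0.58, while IGF2 was at 0.64 ± 0.60 and H19 at 0.90 ± 0.56. The lane limit given above holds for IGF2 and H19 in both groups and for DLK1 in pluripotent wells. The pluripotent wells were in lanes 1, 4 and 5 and the day 0 wells in lanes 1, 4 and 3. The part of the lanes in these changes was not tested. PEG10 was at 0.47 ± 0.35, NNAT at 0.52 ± 0.24, MEST at -0.21 ± 0.37 and SNRPN at -0.27 ± 0.20. MEG3, at 2.66 ± 1.49, was separate only between 0.138 CPM (4 counts) in the lowest day 0 well and 0.123 CPM (also 4 counts) in the highest pluripotent well. In TPM, 4 of the 10 were separate rather than 9, and the share of all tested genes that were separate in either direction was 29.3% rather than 47.8%. PEG3 was at -1.88 ± 2.47, on 0 to 5 counts a well.

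Among 31 other imprinted genes and neighbours of the 10, 30 were in the file and 26 were tested, and 2 rose and 0 fell at day 0 with edgeR's quasi-likelihood test, where 2.91% of all genes were called. A call needs an adjusted p under 0.05 and a change of at least 1 on the log2 scale. Levels of list genes below are means ± SD over the wells (n = 3, and 5 at day 9), with the later group first, and log2 changes carry their SE. The 2 were DIO3, a thyroid hormone deiodinase at the far end of the DLK1 and MEG3 cluster, at 1.98 ± 0.336 against 0.238 ± 0.0374 CPM (log2 change 3.04 ± 0.66, adjusted p = 0.0044), and L3MBTL1, a chromatin reader, at 20.4 ± 2.06 against 8.04 ± 0.916 CPM (log2 change 1.34 ± 0.32, adjusted p = 0.0091). With limma on TPM neither was called. The median log2 change was 0.24 over these 26 and 0 over all tested genes. Of 21 genes of the insulin-like growth factor axis, all tested, 3 rose and 0 fell, with a median of 0.53. IGFBP5, which binds the factors outside the cell, was at 51.2 ± 2.34 against 5.55 ± 0.707 CPM (log2 change 3.20 ± 0.47, adjusted p = 5.3e-05), and IGFBP7 at 3.02 ± 0.813 against 0.432 ± 0.123 CPM (log2 change 2.79 ± 0.55, adjusted p = 0.0018) by edgeR.

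Day 3 against day 0 spanned the CHIR99021 treatment. Among the 10, the CPM ranges of 6 were wholly higher at day 3 (IGF2, H19, MEG3, PLAGL1, PEG10 and PEG3), that of SNRPN wholly lower, and DLK1, MEST and NNAT overlapped, where 29% of all tested genes were wholly higher and 29.2% wholly lower. The log2 change was 3.48 ± 0.51 for PLAGL1, 2.07 ± 0.56 for H19, 1.83 ± 0.60 for IGF2 and 0.94 ± 0.35 for PEG10. The day 0 levels of H19 and IGF2 carry the lane limit given above. SNRPN stood at -1.90 ± 0.21, DLK1 at -0.23 ± 0.62, MEST at 0.11 ± 0.37 and NNAT at 0.16 ± 0.24. MEG3 was at 2.01 ± 1.13 and PEG3 at 3.28 ± 2.36. PEG3 was separate only between 0.113 CPM (3 counts) in the lowest day 3 well and 0.0333 CPM (1 count) in the highest day 0 well. In the list of other imprinted genes, 2 rose and 4 fell, where edgeR called 16.6% of all genes. DIO3 rose again, to 14.6 ± 3.85 against 1.98 ± 0.336 CPM (log2 change 2.88 ± 0.56, adjusted p = 0.00013), and IGF2-AS, antisense to IGF2, was at 1.56 ± 0.895 against 0.180 ± 0.0513 CPM (log2 change 3.07 ± 0.65, adjusted p = 0.00037), with reads it may share with IGF2. Of the 4 that fell, 3 belong to the same chromosome 15 region as SNRPN. SNURF was at 1.56 ± 0.289 against 9.93 ± 1.63 CPM (log2 change -2.66 ± 0.45, adjusted p = 1.6e-05) and MAGEL2 at 3.43 ± 0.292 against 12.4 ± 1.57 CPM (log2 change -1.85 ± 0.39, adjusted p = 0.00044). SNHG14, named after its values were seen, was at 237 ± 16.7 against 824 ± 25.8 CPM (log2 change -1.80 ± 0.20, adjusted p = 7.2e-09), and both SNURF and SNHG14 overlap SNRPN on its strand, so reads may be shared among the 3. Of the same region, NDN (log2 change -0.04, adjusted p = 0.94), UBE3A (0.11, adjusted p = 0.6) and MKRN3 (1.77, adjusted p = 0.54) were not called by edgeR. In the growth factor axis 3 rose and 5 fell. PAPPA, a protease that cuts IGF-binding proteins, was at 62.4 ± 14.0 against 3.16 ± 0.271 CPM (log2 change 4.30 ± 0.59, adjusted p = 4.9e-07) and IRS1, an adaptor of the receptor, at 113 ± 24.8 against 44.4 ± 1.57 CPM (log2 change 1.35 ± 0.29, adjusted p = 0.00041). IGFBP5 fell back, to 5.86 ± 0.696 against 51.2 ± 2.34 CPM (log2 change -3.13 ± 0.47, adjusted p = 2.8e-06), and IGFBP3 was at 2.24 ± 0.122 against 11.2 ± 1.05 CPM (log2 change -2.31 ± 0.52, adjusted p = 0.00088) by edgeR. The median log2 change was 0.11 in the imprinted list, -0.011 in the axis and 0.017 over all genes.

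Day 9 against day 3 spanned the IWP2 treatment, and the summed cardiomyocyte markers were 56.4 to 61.2 CPM at day 3 and 6895 to 16888 CPM at day 9. IGF2, H19 and DLK1 were wholly higher at day 9 and NNAT wholly lower, and 6 overlapped, where 21.2% of tested genes were wholly higher and 23.8% wholly lower. The log2 change was 5.71 ± 0.68 for IGF2, 4.32 ± 0.58 for H19 and 2.68 ± 0.62 for DLK1. NNAT was at -1.10 ± 0.21, SNRPN at 0.02 ± 0.18, PLAGL1 at 0.20 ± 0.40, MEST at 0.81 ± 0.34 and PEG10 at -0.42 ± 0.30. The low genes MEG3 and PEG3 were at 0.40 ± 0.93 and -0.07 ± 1.65. On the log2(TPM + 1) scale SNRPN was at -0.65, PLAGL1 at -0.55, MEST at 0.03 and PEG10 at -1.08. IGF2, H19, DLK1 and NNAT kept their direction on that scale. In TPM, 6 of the 10 were separate rather than 4, beside 30.9% of all tested genes rather than 44.9%. In the imprinted list 5 rose and 0 fell, where edgeR called 21.2% of all genes. CDKN1C, a cell cycle inhibitor in the domain beside IGF2, was at 99.9 ± 62.7 against 13.8 ± 2.14 CPM (log2 change 2.86 ± 0.46, adjusted p = 6.2e-06) and IGF2-AS at 10.2 ± 5.39 against 1.56 ± 0.895 CPM (log2 change 2.71 ± 0.50, adjusted p = 4.1e-05). In the axis 5 rose and 1 fell. IGFBP7 was at 91.8 ± 57.7 against 0.816 ± 0.0861 CPM (log2 change 6.81 ± 0.54, adjusted p = 1.9e-12) and IGFBP3 at 187 ± 65.7 against 2.24 ± 0.122 CPM (log2 change 6.38 ± 0.59, adjusted p = 7.3e-11), and the 1 that fell, STC1, an inhibitor of PAPPA, was at 6.64 ± 2.19 against 39.4 ± 5.38 CPM (log2 change -2.57 ± 0.37, adjusted p = 7.9e-07) by edgeR. Median log2 changes were 0.20 in the imprinted list, 0.22 in the axis and 0.016 over all genes.

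Day 30 against day 9 spanned the change to the CTS B-27 supplement and the following weeks. None of the 10 was wholly higher and 2 were wholly lower, MEST at -1.70 ± 0.35 and NNAT at -1.26 ± 0.23, where 11.4% of tested genes were wholly higher and 14.3% wholly lower. IGF2 was at 1.17 ± 0.49 with overlapping wells. H19 was at 1.74 ± 0.46, and at -0.01 without day 30 replicate 3. DLK1 was at -0.30 ± 0.55, PLAGL1 at 0.26 ± 0.40, PEG10 at 0.44 ± 0.30 and SNRPN at 0.11 ± 0.18. For MEG3 and PEG3 the sign or size of the change rested on day 30 replicate 10, the library of lowest RIN in that group: MEG3 went from -0.51 ± 0.97 to -5.98 without it, and PEG3 from 2.45 ± 1.56 to -4.89. In the imprinted list 2 rose and 3 fell, where edgeR called 18.9% of all genes. DIRAS3, a RAS-like growth suppressor, was at 11.5 ± 8.69 against 0.395 ± 0.191 CPM (log2 change 4.85 ± 0.54, adjusted p = 8.8e-09) and SNURF at 7.57 ± 0.379 against 2.70 ± 0.977 CPM (log2 change 1.48 ± 0.37, adjusted p = 0.002). DIO3 was at 1.80 ± 1.01 against 7.11 ± 2.00 CPM (log2 change -1.97 ± 0.52, adjusted p = 0.0035) and CDKN1C at 28.0 ± 1.53 against 99.9 ± 62.7 CPM (log2 change -1.84 ± 0.44, adjusted p = 0.0013). In the axis 5 rose and 1 fell. IGF1, the other ligand of the receptor, was at 3.11 ± 0.669 against 0.228 ± 0.116 CPM (log2 change 3.74 ± 0.80, adjusted p = 0.00039), IGFALS, which carries the factors in serum, at 1.27 ± 0.972 against 0.0965 ± 0.0663 CPM (log2 change 3.63 ± 0.89, adjusted p = 0.0017), and IRS1 at 24.3 ± 14.4 against 152 ± 28.4 CPM (log2 change -2.64 ± 0.29, adjusted p = 4.0e-09) by edgeR. Here the median log2 change was 0.29 in the imprinted list, 0.15 in the axis and 0.068 over all genes.

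**Figure D4:**
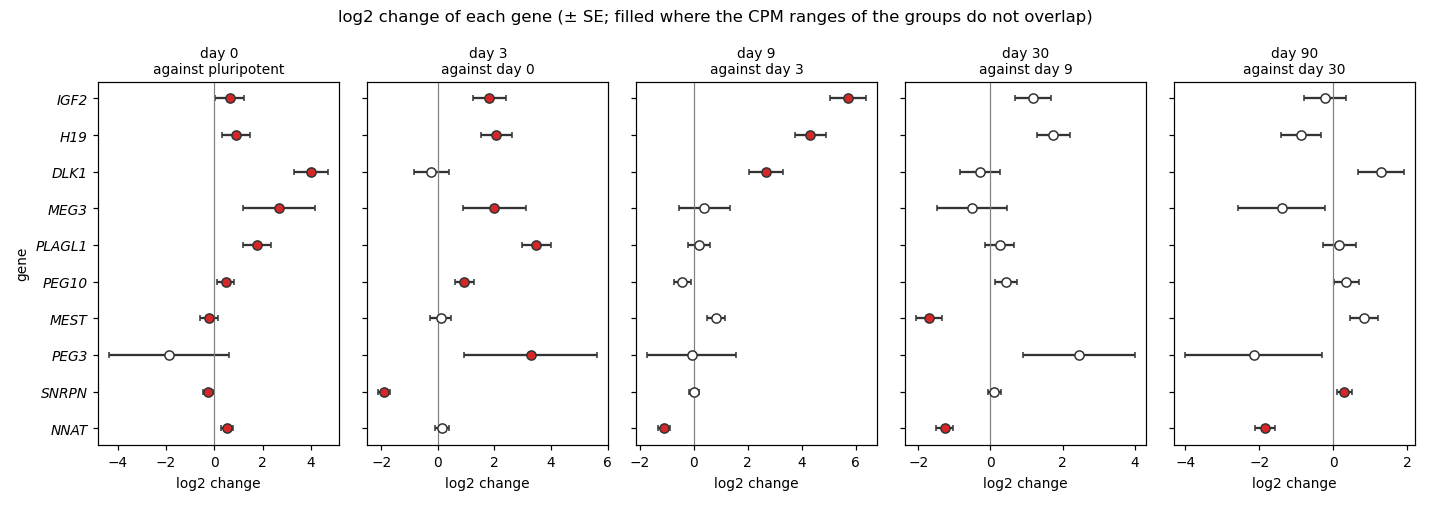
log2 change of each gene (rows) with its SE, from the fit to all 44 libraries, in the 5 comparisons (panels); filled points mark genes whose CPM ranges do not overlap between the 2 groups. The panels hold 9, 7, 4, 2 and 2 filled points, to be read beside the shares of all tested genes, which differ between the comparisons, and IGF2 and H19 lie farthest right in the third.

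Day 90 against day 30 was the least settled comparison. SNRPN was wholly higher at 0.30 ± 0.20, NNAT wholly lower at -1.84 ± 0.27, and 8 overlapped, where 7.68% of tested genes were wholly higher and 6.16% wholly lower. On the TPM scale SNRPN was lower instead, at -0.57, and the median change of all genes on the log2(TPM + 1) scale less that in CPM was -0.81 for this pair of groups. The same offset was -0.64 at day 9 (from day 3), 0.27 at day 3 (from day 0) and 0.28 at day 30 (from day 9), so small changes in CPM, also those of DLK1, MEST, PEG10 and PLAGL1 at day 90, which change sign in TPM, hold relative to the TMM scaling only. NNAT kept its direction on both scales. DLK1 was at 1.30 ± 0.62 and MEST at 0.84 ± 0.37 in CPM, both with day 90 replicate 4 far below its fellows. Without that well 4 of the 10 were separate rather than 2, but so were 28.5% of all tested genes rather than 13.8%. IGF2 was at -0.22 ± 0.56 and H19 at -0.87 ± 0.53, and without day 30 replicate 3 they were at 0.50 and 0.85. PEG10 was at 0.35 ± 0.34 and PLAGL1 at 0.17 ± 0.45. MEG3 was at -1.40 ± 1.16 and PEG3 at -2.15 ± 1.85, and both were positive, at 4.08 and 5.22, without day 30 replicate 10. In the imprinted list 0 rose and 1 fell, where edgeR called 5.09% of all genes. That gene, MAGEL2, was at 4.34 ± 1.41 against 9.96 ± 8.70 CPM (log2 change -1.21 ± 0.39, adjusted p = 0.047), and it was no longer called when day 30 replicate 3 or day 90 replicate 5 was left out, with a lane term or with other size factors. In the axis 2 rose and 1 fell. IGFBP6 was at 35.4 ± 22.4 against 7.61 ± 3.67 CPM (log2 change 2.21 ± 0.39, adjusted p = 0.00025), IGFBP4 at 111 ± 35.0 against 40.8 ± 6.87 CPM (log2 change 1.44 ± 0.24, adjusted p = 0.00013) and IGF2BP1, which binds IGF2 messenger RNA, at 69.0 ± 7.72 against 166 ± 69.5 CPM (log2 change -1.26 ± 0.18, adjusted p = 2.4e-05) by edgeR. The median log2 change was -0.074 in the imprinted list, -0.17 in the axis and -0.069 over all genes.

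**Figure D5:**
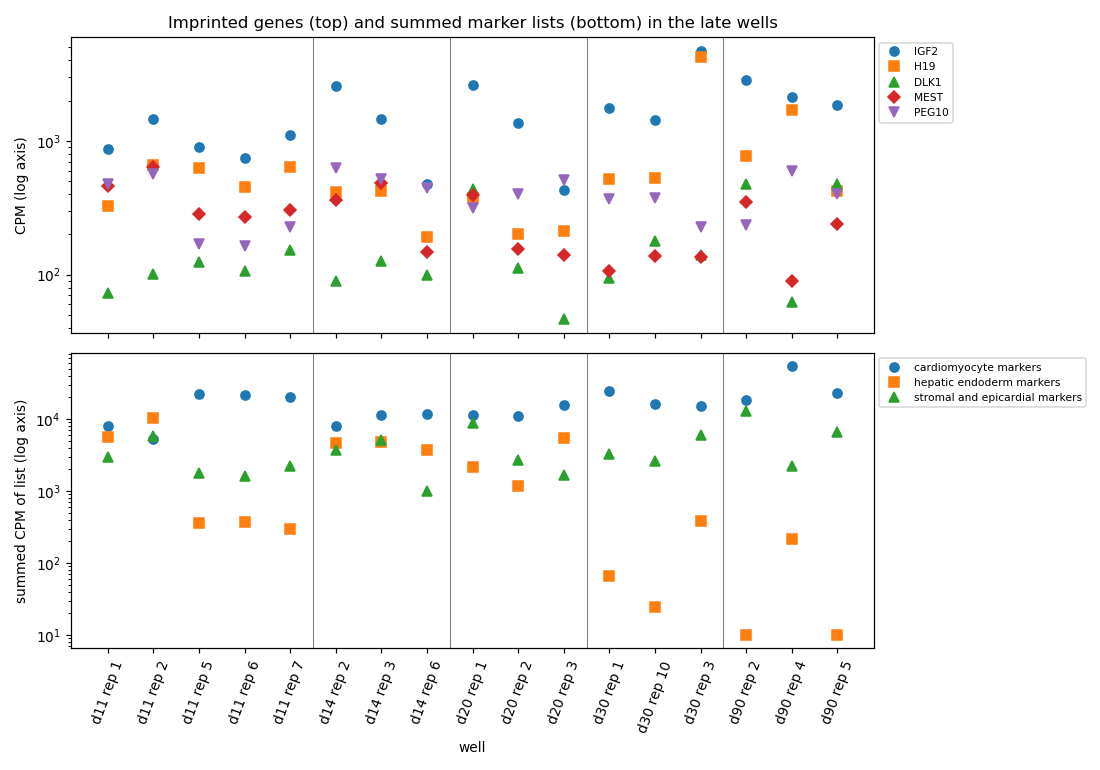
CPM of 5 imprinted genes (top) and summed CPM of 3 marker lists (bottom) in each well from day 11 to day 90, on log axes, with lines between the groups. MEST and PEG10 are high in day 11 replicates 1 and 2, where both the hepatic endoderm and the stromal and epicardial sums are the highest of the group, and DLK1 and MEST are low in day 90 replicate 4, where the stromal and epicardial sum is low.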

How the data were processed

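RNA was measured in 44 libraries, 1 per well, in 12 groups taken from the labels. Per the labels' protocols these were stranded total RNA libraries read as paired ends, with several libraries per lane. The submitters' processing notes name cutadapt, STAR 2.5.2b, RSEM 1.2.31 and hg38. The gene annotation and the use of strand in counting are not given in the sources used here. The authors deposited estimated counts per gene, left unscaled between libraries. Their second deposited gene table holds TPM, corrected for transcript length and summing alike in all libraries. Another deposited table gives the RIN (a score of RNA integrity), the lane and the sequencing batch of each library. The sequencing batch was not a term in any of the fits.

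Estimated counts were rounded to whole numbers, and filterByExpr of edgeR 4.0.16 (R 4.3.3) left 22955 of 60499 genes. After TMM scaling, edgeR's quasi-likelihood fit took all 44 libraries and gave each group its own mean. Genes of the lists were called at an adjusted p under 0.05 (Benjamini-Hochberg over all tested genes) and an absolute log2 change of at least 1. Within the 10 genes described, no p-value is given for levels. A detection floor of 3 counts was used. Counting floors do not cover error other than counting, since the libraries have no molecular identifiers. Column names tied all 44 libraries to labels, and replicates of every group differed by more than sampling noise. Symbols and coordinates are from GENCODE release 29, and sequences are from RefSeq. The steps were tested on simulated data.

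The 10 genes, the lists and the comparisons were chosen with earlier results of these data known. From each list and comparison the called genes with the 2 largest rises and the 2 largest falls are named, if the higher group had a mean of at least 1 CPM. For each of the 10, the 3 other genes most like it over the 12 group means of log2 CPM are named, among protein-coding and long non-coding genes reaching 5 CPM. Alternatives were DESeq2 1.42.0, limma 3.58.1 on log2(TPM + 1), other scalings and filters, a lane term, a block for the replicate number, fits to the compared groups only and leaving out each library. An alternative without libraries of RIN under 8.5 was chosen after seeing the data.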

Additional observations from a re-analysis of the deposited data

Results flagged for a closer look

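Of 40 sets of 5 wells (10 genes at days 5, 7, 9 and 11), 4 had a well far from the rest by Dixon's criterion at 95%, where chance alone gives about 1 in 20. At day 5, DLK1 stood at 118.9 CPM in replicate 5, with the next well at 39.8 CPM. MEST at day 5 stood at 334.0 CPM in replicate 2, with the next at 296.0 CPM. PEG3 stood at 0.565 CPM in day 5 replicate 4, with the other 4 wells at 0, and at 0.708 CPM in day 9 replicate 3, with the next at 0.0337 CPM. Groups of 3 wells were not examined this way.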

How the results depend on the processing

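For the log2 changes of the 10 genes, 389 of 428 values under other settings and 327 of 340 with 1 library left out moved by less than the spread between wells (1 SD). SNRPN at day 90 against day 30 reversed with limma on log2(TPM + 1), at -0.57. The relation of IGF2 and DLK1 had an r of 0.0016 in the main setting, too small for its sign to carry meaning. It was -0.293 without the day 14 and day 20 groups and -0.0345 without the 2 farthest libraries. These had adjusted p of 0.13 and 0.82 (permutation tests within groups). Without libraries of RIN under 8.5 it was -0.273. The relation of DLK1 and MEG3 passed the threshold with log2(TPM + 1), at r = 0.454.

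At day 0 against pluripotent cells, the imprinted list had 2 calls, 4 with at least 10 counts in every library of a group, with the compared groups only, with DESeq2 and without libraries of RIN under 8.5, and 0 with limma (1 to 2 with 1 library left out, the 1 without pluripotent replicate 1). The growth factor axis had 3 calls there, 5 with the compared groups only and 1 with limma (2 with any 1 library left out), and 4 of the 10 genes rather than 9 were separate in deposited TPM. With limma the imprinted list had 3 calls at day 3 against day 0 (main 6) and 2 at day 30 against day 9 (main 5). At day 90 against day 30 its 1 call became 0 with RLE size factors, with all genes of at least 1 count, with the compared groups only and with a lane term, and 4 without libraries of RIN under 8.5 (0 to 5 with 1 library left out, the 5 without day 30 replicate 10). The axis went from 3 calls to 0 with the compared groups only and to 5 without libraries of RIN under 8.5 (3 to 5 with 1 library left out, the 5 without day 30 replicate 10 or day 90 replicate 4). There, 1 of the 10 genes rather than 2 was separate with RLE size factors and without TMM, and 4 were separate without libraries of RIN under 8.5 (2 to 4 with 1 library left out).

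The replicate numbers were not taken as pairs, because not every pair of wells with the same number deviated together: 12 pair correlations ran from -0.0259 to 0.459, and day 90 and day 30 share no number. With a replicate block the imprinted list had 4 calls at day 0 against pluripotent cells and 2 at day 90 against day 30, and no other list count moved by over 1.5 times.

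Over all genes, edgeR called 669 at day 0 against pluripotent cells (627 higher), 1592 with the compared groups only, 1074 without libraries of RIN under 8.5 and 22 with limma (14 higher). Leaving out 1 library gave 252 to 395. At day 90 against day 30 it called 1168 (608 higher), 2 with the compared groups only, 730 with a lane term, 2015 without libraries of RIN under 8.5 and 2078 with limma (57 higher). With limma on TPM the other counts were 1468 (1049 higher) against 3803 (1792 higher) at day 3, 3656 (615 higher) against 4870 (2832 higher) at day 9 and 1439 (958 higher) against 4347 (2224 higher) at day 30. Leaving out a library of a group of 3 leaves 2. Without libraries of RIN under 8.5, days 14 and 20 keep 1 library each, assumed to vary like the others. Depth limits MEG3 and PEG3 most.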
